A study of Saccharomyces cerevisiae with 6 samples.

Results

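Petite cells were set against oxygen-limited cells on xylose: a yeast that has lost respiration by mutation, and its respiring parent strain with little oxygen, both in xylose medium. The comparison uses 2 of the 6 arrays of the study, 1 per side, and takes every yeast gene that the array reads. Of 5656 genes measured, 5283 could be compared, and 373 lay at the intensity floor on both arrays and gave no difference. All values come from Affymetrix yeast arrays, on which short DNA probes read labelled copies of messenger RNA as a brightness.

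Both cultures descend from Saccharomyces cerevisiae YSX3, a MATalpha strain with the alleles leu2::LEU2-XYL1, ura3::URA3-XYL2 and Ty3::NEO-XYL3. XYL1, XYL2 and XYL3 are genes of the xylose-using yeast Pichia stipitis for xylose reductase, xylitol dehydrogenase and xylulokinase, and all groups carry them. The oxygen-limited xylose culture was YSX3 in 50 ml of YP (yeast extract and peptone) medium with 40 g/L xylose. It was shaken at 100 rpm in a 125 ml flask and taken at an optical density (OD600) of 30. The petite sample was the respiration-deficient mutant FPL-YSX3P, which was grown on glucose, collected at an OD600 of 1, moved to YP xylose and kept there for 24 hours before RNA extraction. For the petite culture the labels give neither sugar concentration nor flask nor shaking. The mutant is a single derived strain, and the labels do not say which lesion makes it respiration-deficient. The matching arrays on glucose (oxygen-limited YSX3 at 40 g/L and an OD600 of 30, and the petite mutant) and the aerobic YSX3 arrays (20 g/L, 200 ml in 1000 ml flasks at 300 rpm, OD600 of 1) are given beside the xylose pair. The density of the petite culture at RNA extraction is not given. Respiratory defect and the move from glucose go together with the groups, and oxygen supply, density and growth phase may too, so their parts in any difference below cannot be told apart.

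A petite yeast cannot oxidise its carbon source through the mitochondrial respiratory chain, often because it has lost part or all of the mitochondrial DNA. That DNA encodes core subunits of cytochrome oxidase, cytochrome b and the ATP synthase, while the nucleus encodes all other subunits. A cell short of oxygen keeps its mitochondrial genome but lacks the final electron acceptor, and heme and sterol synthesis, which need oxygen, slow down. In YSX3 the first steps of xylose use change the balance of the redox cofactors NADPH and NADH, and respiration is one way to reoxidise the NADH.

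With 1 array per condition the xylose difference has no replicate error, so it is a description of 2 arrays. Differences are given as log2 of scaled intensity, petite minus oxygen-limited, or as the same ratio in fold. An intensity below 61.7 was raised to that floor, and a fold with 1 array at the floor is a bound, written as at least. Where several probe sets read 1 gene, their xylose differences had a standard deviation of 0.56 log2 units over 203 genes. On each array 88.0% to 90.5% of genes lay above the floor. Genes read by the highest-numbered probe sets of the array, called high-numbered below, were shifted toward the petite side. On xylose their median was 0.18 over 685 genes against -0.06 for the others, and on glucose 0.59 against -0.02. A running median along probe set numbers was also removed. Of 173 named genes past 2-fold on xylose, 11 then fell under 2-fold and 0 changed sign. The origin of the shift was not tested. Of the 5283 genes compared, 367 (6.95%) were at least 2-fold higher in the petite cells and 324 (6.13%) at least 2-fold lower, around a median difference of -0.04.

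The highest genes in petite cells included genes of carbon dioxide hydration, sugar and phosphate uptake and lysine synthesis. NCE103, which encodes carbonic anhydrase, read 3002 in petite and 235 in oxygen-limited cells on xylose, a 12.8-fold ratio. HXT2, a high-affinity hexose transporter gene, read 2965 and 264, or 11.2-fold higher in petite cells. PHO84, the high-affinity phosphate transporter gene, read 2983 and 324, or 9.19-fold higher. SRX1, which encodes sulfiredoxin and repairs oxidised peroxiredoxins, read 3121 and 353 and is among the high-numbered probe sets. The stationary-phase genes SPG5 and SPG4 were 8.81-fold and 6.37-fold higher. LYS9 of lysine synthesis was 8.18-fold higher, at 1067 against 130. ADH2, the alcohol dehydrogenase gene that serves ethanol oxidation and is repressed by glucose, was 7.58-fold higher. DAK2 (dihydroxyacetone kinase), CTA1 (peroxisomal catalase), SPL2 and PHO89 (phosphate uptake), RLP7 (ribosome assembly), the small nucleolar RNA SNR4 and the gene CPP3 made up the rest of the 15 highest, at 5.69-fold to 9.62-fold. These 15 were drawn from bright genes with a standard name. YER138W-A, which has no standard name, was the highest of all genes compared at 14.7-fold.

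The lowest genes in petite cells were led by transcripts of the mitochondrial genome. OLI1 and COX1 are described below. MF(ALPHA)1, the main alpha-factor gene, read 259 in petite and 3947 in oxygen-limited cells, or 15.2-fold lower. HSP30, a stress-induced plasma membrane protein gene, was 10.9-fold lower, at 494 against 5369. ACH1 (mitochondrial CoA transfer between acetate and succinate) was 8.60-fold lower, FDH1 (formate dehydrogenase) 8.36-fold (-2.02 as the mean of its probe sets) and ACO1 (aconitase) 7.88-fold. The cell wall mannoprotein gene TIP1 was 7.11-fold lower, and the weak-acid pump gene PDR12 and the membrane protein gene YRO2 were 6.34-fold and 6.08-fold lower. The copper transporter gene CTR1, the glycogen phosphorylase gene GPH1, the ATP synthase inhibitor gene INH1, the cytochrome oxidase subunit gene COX26 and IZH4 completed the 15 lowest, at 5.63-fold to 8.33-fold. These too were drawn from bright genes with a standard name.

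**Figure D1:**
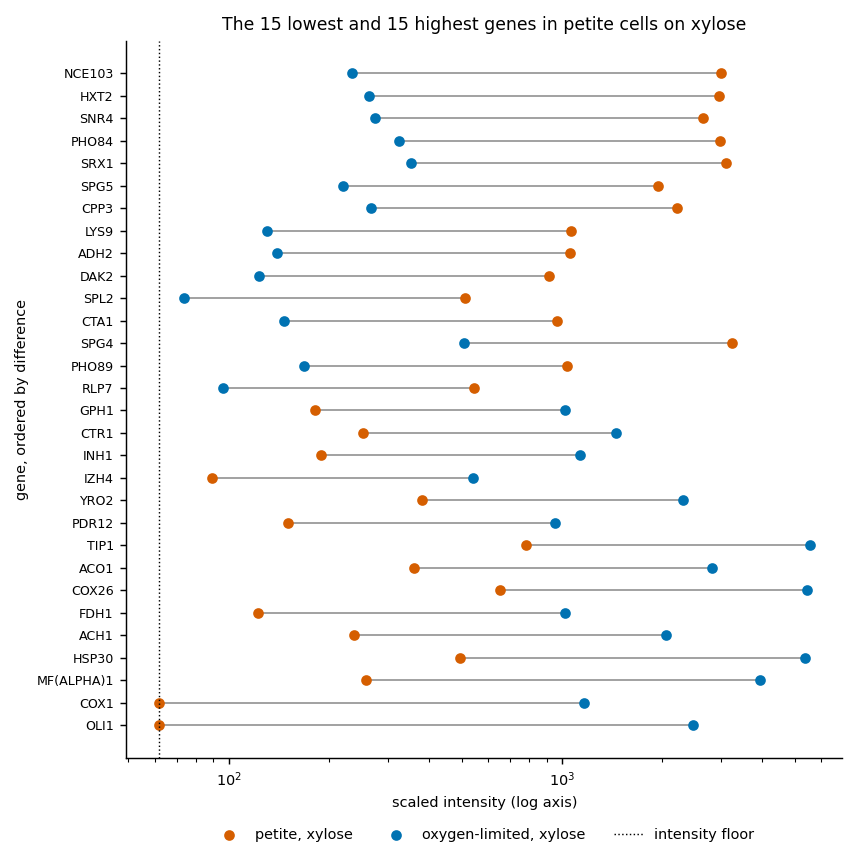
Scaled intensity (log axis) of the 15 lowest and 15 highest named genes in petite (orange) and oxygen-limited (blue) cells on xylose, 1 array each, with the intensity floor of 61.7 as a dotted line. NCE103 spans 235 to 3002 at the top, and OLI1 lies at the floor in petite cells against 2480 in oxygen-limited cells at the bottom.

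Transcripts of the mitochondrial genome bear on the petite label. OLI1, which encodes the ring subunit of the ATP synthase, was at the floor on both petite arrays. It read 2480 on oxygen-limited xylose, 2280 on aerobic xylose, 1062 on oxygen-limited glucose and 2313 on aerobic glucose. The petite xylose value was thus at least 40.2-fold lower than the oxygen-limited one. COX1, the catalytic subunit gene of cytochrome oxidase, was likewise at the floor on both petite arrays and read 1167, 1393, 374 and 963 on the other arrays in the same order, which is at least 18.9-fold lower on xylose. For both genes the petite arrays lay below every array of YSX3. A gene with several probe sets is given by the brightest, and here the dimmer ones differed less or lay at the floor, so that the means over 2 and 3 probe sets were -2.67 and -2.51.

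Most other mitochondrial genes gave little signal. Of 19 measured, 12 were at the floor on both xylose arrays, among them COX2 and VAR1, which were at the floor on all 6 arrays. COB, the cytochrome b gene, was at the floor in petite and at 129 in oxygen-limited cells. COX3 read 204 in petite and 149 in oxygen-limited cells on xylose and 137 and 78.0 on glucose, while both aerobic arrays were at the floor. COX3 therefore did not share the pattern of OLI1 and COX1, and what its probes read in petite cells was not tested. The labels mention an oligo(dT) primer for the copies, and yeast mitochondrial messages are known to lack long poly(A) tails.

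Nuclear genes of the respiratory chain were lower in petite than in oxygen-limited cells almost throughout. Of 28 compared, 22 were at least 2-fold lower and 0 at least 2-fold higher, with a median of -1.63 against -0.04 for all genes. Complexes II, III and IV all held such genes. In complex IV, COX6 read 463 against 2195 and COX4 455 against 2015. In complex III, the core subunit gene COR1 read 414 against 1954 and the iron-sulfur protein gene RIP1 1175 against 3886. In the succinate dehydrogenase complex, SDH1 read 898 against 3890 and SDH2 1661 against 4424. The internal NADH dehydrogenase gene NDI1 read 368 against 1673, or 4.55-fold lower. In contrast, the external NADH dehydrogenase genes NDE1 and NDE2, which take electrons from cytosolic NADH, differed by -0.63 and -0.42.

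Paired isoforms did not move by the same amount, and those of cytochrome c went in opposite directions. COX5A, the isoform of cytochrome oxidase subunit V known for aerobic cells, was 3.12-fold lower in petite cells at 966 against 3013. COX5B, the isoform known for low oxygen, read 196 against 296, and was lower still on the aerobic xylose array at 79.6. CYC7, which encodes the low-oxygen isoform of cytochrome c, was 3.92-fold lower at 278 against 1091. CYC1, the main cytochrome c gene, went the other way at 2255 against 1507, was the single member of the 28 above 0, and is among the high-numbered probe sets. With the trend along probe set numbers removed, the list still held 22 members at least 2-fold lower and 0 higher, beside 6.3% and 6.44% of all genes.

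Genes of the mitochondrial ATP synthase showed the same direction. All 17 were below 0 and 14 were at least 2-fold lower, with a median of -1.58. The central F1 subunit genes ATP3 (381 against 1909), ATP1 (799 against 3239) and ATP2 (1134 against 3371) were all lower in petite cells. The inhibitor gene INH1 was the lowest at 189 against 1133. STF1, STF2 and ATP15 lay less than 2-fold lower. Together the nuclear genes of oxidative phosphorylation were 45 of the 5283 genes compared. The 36 of them at least 2-fold lower made up 11.1% of the 324 genes at least 2-fold lower.

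The level of these lists on all 6 arrays places the difference. The median of the respiratory chain list was 9.82 in petite and 11.16 in oxygen-limited cells on xylose, on the log2 intensity scale, and 11.27 in aerobic cells. On glucose the same medians were 9.05, 9.69 and 10.33. The ATP synthase list had medians of 9.64, 11.27 and 10.86 on xylose and 9.35, 9.57 and 10.43 on glucose. Oxygen-limited xylose cells were thus near or above the aerobic xylose level, and petite cells were the lowest of the 3 on either sugar. On glucose 5 of 28 respiratory chain genes and 1 of 17 ATP synthase genes were at least 2-fold lower in petite than in oxygen-limited cells, where 3.75% of all genes were at least 2-fold lower and 7.33% higher, and the medians were -0.70 and -0.56. The difference between the sugars was not tested.

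**Figure D2:**
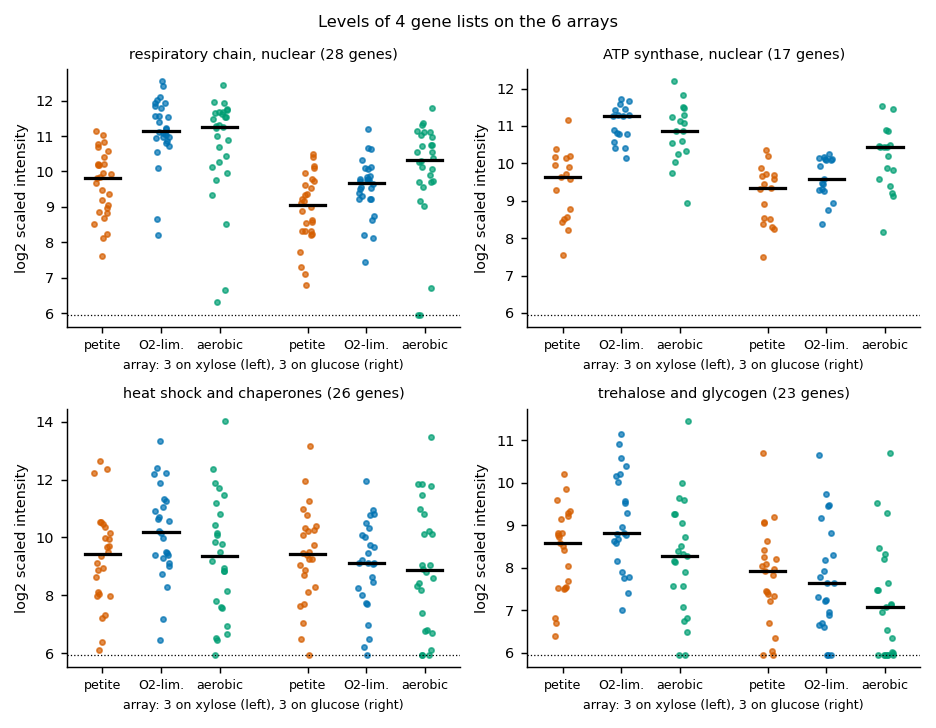
Log2 scaled intensity of each gene (points) of 4 gene lists on the 6 arrays, petite in orange, oxygen-limited in blue and aerobic in green, with list medians as black bars and the floor as a dotted line. For the respiratory chain the xylose medians are 9.82, 11.16 and 11.27 in that order, and heat shock genes have their highest median, 10.20, in oxygen-limited xylose cells.

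In the TCA cycle, which feeds the chain, 6 of 20 genes were at least 2-fold lower and 1 higher, beside 6.13% and 6.95% of all genes. Succinate dehydrogenase also belongs to the cycle, but SDH1 and SDH2, lower as given above, were counted with the chain and not among the 20. Of the 20, 8 lay above 0. ACO1 read 360 in petite and 2834 in oxygen-limited xylose cells, KGD1 (2-oxoglutarate dehydrogenase) 610 against 2589 and IDH2 (isocitrate dehydrogenase) 808 against 2435. LPD1, MDH1 and KGD2 were also at least 2-fold lower. IDH1, the partner subunit of IDH2, was on the other side at 773 against 451, and PDX1, a subunit of pyruvate dehydrogenase, was 2.07-fold higher. The median of the 20 genes was -0.23. On glucose 0 were at least 2-fold lower and 2 higher, beside 3.75% and 7.33% of all genes.

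Loss of mitochondrial function in yeast is known to switch on the retrograde response, in which Rtg1 and Rtg3 activate genes that supply 2-oxoglutarate. CIT2, the peroxisomal citrate synthase gene that serves as its usual reporter, read 1341 in petite and 406 in oxygen-limited cells on xylose, or 3.30-fold higher. The aerobic xylose array stood at 1388, next to the petite one, so it was the oxygen-limited array that stood apart. On glucose the order was turned, with 672 in petite, 1737 in oxygen-limited and 1608 in aerobic cells. DLD3, a cytosolic lactate dehydrogenase gene and another reporter, was at least 2.19-fold higher on xylose, at 135 against the floor, while aerobic xylose cells read 408. PYC1 (pyruvate carboxylase) was 3.47-fold higher, at 1373 against 396, and PDH1 and ATO3 were also past 2-fold. Of the 14 genes of the list, 5 were at least 2-fold higher and 2 lower, beside 6.95% and 6.13% of all genes. ACO1 and IDH2, which the list shares with the TCA cycle, were at least 2-fold lower, and CIT1 read 3113 against 2632.

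A list of genes tied to low oxygen or low heme gave no common direction between the petite and the oxygen-limited cells. It pools target genes with a regulator, HAP1, so its median does not measure hypoxic induction. Of 31 genes, 5 stood past 2-fold on the petite side and 4 on the other, beside 6.95% and 6.13% of all genes. The median of the 31 was 0.11, and turned to -0.04 after quantile normalization and -0.15 without high-numbered probe sets. ANB1, the hypoxic isoform of translation factor eIF5A, was 4.37-fold higher in petite cells at 350 against 79.9, and is among the high-numbered probe sets. HAP1, the heme-responsive activator gene, was 3.90-fold higher. CYC7, described above, was the lowest of the list at 3.92-fold lower. The flavohemoglobin gene YHB1 was 3.90-fold lower by its brightest probe set but differed by -0.88 as the mean of its probe sets. The cytochrome b5 gene CYB5 was 2.29-fold lower, and the fatty acid desaturase gene OLE1 was 2.09-fold lower at 534 against 1115. The repressor gene ROX1 read 424 against 320, and the heme synthesis gene HEM13 159 against 301. AAC3, a hypoxic ADP/ATP carrier gene, was at the floor on both xylose arrays. Ergosterol genes had a median of -0.53 with 3 of 24 at least 2-fold lower, among them ERG5 (306 against 1418) and HMG1 (667 against 1538). ERG8 alone was at least 2-fold higher.

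Sugar transport differed by transporter. Beside HXT2, the low-affinity gene HXT1 was at least 3.99-fold higher in petite cells, at 246 against the floor, and HXT5, known from slow growth, 2.46-fold higher at 1871 against 760. HXT3 was 2.03-fold higher. HXT6 and HXT7, near-identical copies that the probes may not separate, read 5913 against 4790 and 5378 against 4326. The glucose sensor genes SNF3 and RGT2 were 2.59-fold and 2.21-fold lower. In all, 5 of 18 genes of hexose transport and its control were past 2-fold on the petite side and 2 on the other. The shares over all genes were 6.95% and 6.13%.

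The yeast's own genes around xylose and the pentose phosphate pathway were mostly on the lower side, with a median of -0.61. At least 2-fold lower were 6 of 19 and higher 2, beside 6.13% and 6.95% of all genes. XKS1, the native xylulokinase gene, read 112 against 288, and GND1, the main 6-phosphogluconate dehydrogenase gene, 470 against 1212. SOL4, GND2, TKL2 and NQM1, minor isoforms of the pathway, were 2.31-fold to 3.73-fold lower. ZWF1, the glucose-6-phosphate dehydrogenase gene at the entry of the pathway and a source of NADPH, was 2.85-fold higher at 1446 against 507. RPE1 was 2.35-fold higher, is high-numbered and stood at 0.96 with the trend removed. The main transketolase and transaldolase genes TKL1 and TAL1 differed by -0.34 and -0.67, and the aldose reductase gene GRE3 by -0.19. Probes for XYL1, XYL2 and XYL3 were not used here.

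The main fermentation genes PDC1 (pyruvate decarboxylase) and ADH1 read 3915 against 3397 and 4119 against 4877. Among 21 genes of glycolysis 3 were at least 2-fold lower, namely PGK1 (2996 against 7426), PGI1 (712 against 1617) and PFK2. The minor isoform genes PYK2 and TDH1, the last high-numbered, were at least 2-fold higher. Over all genes 6.13% were at least 2-fold lower and 6.95% higher. ADH2 read 1056 in petite, 139 in oxygen-limited and 1621 in aerobic cells on xylose, and 1350, 177 and 143 on glucose. Both oxygen-limited arrays were thus low, and the petite arrays were high on either sugar. Of 23 genes of ethanol, acetate and lactate use, 5 were at least 2-fold higher, including the lactate dehydrogenase genes CYB2 (1112 against 358) and DLD1 (1910 against 696). In glycerol synthesis, which reoxidises cytosolic NADH, GPD1 was 3.41-fold lower at 436 against 1488, and its isoform GPD2 read 146 against 135.

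Heat shock genes and genes of storage carbohydrates had medians below 0. Among heat shock and chaperone genes 14 of 26 were at least 2-fold lower and 1, SIS1, at least 2-fold higher, with a median of -1.07. The shares over all genes were 6.13% and 6.95%. HSP26, a small heat shock protein gene, read 1320 against 4706, and HSP104, the disaggregase gene, 251 against 672. The aerobic xylose values were 221 and 496. On glucose the list had a median of 0.27. There 5 of 25 members were at least 2-fold higher and 0 lower, beside 7.33% and 3.75% of all genes. HSP26 read 851 in petite against 304 in oxygen-limited cells on glucose. Among genes of trehalose and glycogen, the storage carbohydrates, 10 of 23 were at least 2-fold lower and 0 higher, with a median of -0.74. GPH1 read 182 against 1026, the trehalose phosphatase gene TPS2 380 against 1149 and the glycogen synthase gene GSY2 188 against 497. On glucose that list had a median of -0.06.

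General stress and stationary-phase genes split, with 8 of 33 at least 2-fold lower and 4 higher, beside 6.13% and 6.95% of all genes. YGP1, SPI1 and the mitochondrial outer membrane gene OM45 were lower, at 1036 against 4529, 808 against 2471 and 718 against 1743. SPG4, SNZ1 (vitamin B6 synthesis), RGI2 and TMA10 were higher, SNZ1 at 1412 against 288. Oxidative stress genes also split, with 4 of 33 (12.1%) on either side. The cytosolic catalase gene CTT1 and the mitochondrial superoxide dismutase gene SOD2 were 3.48-fold and 2.48-fold lower, while the peroxisomal catalase gene CTA1 was 6.62-fold higher at 970 against 147.

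**Figure D3:**
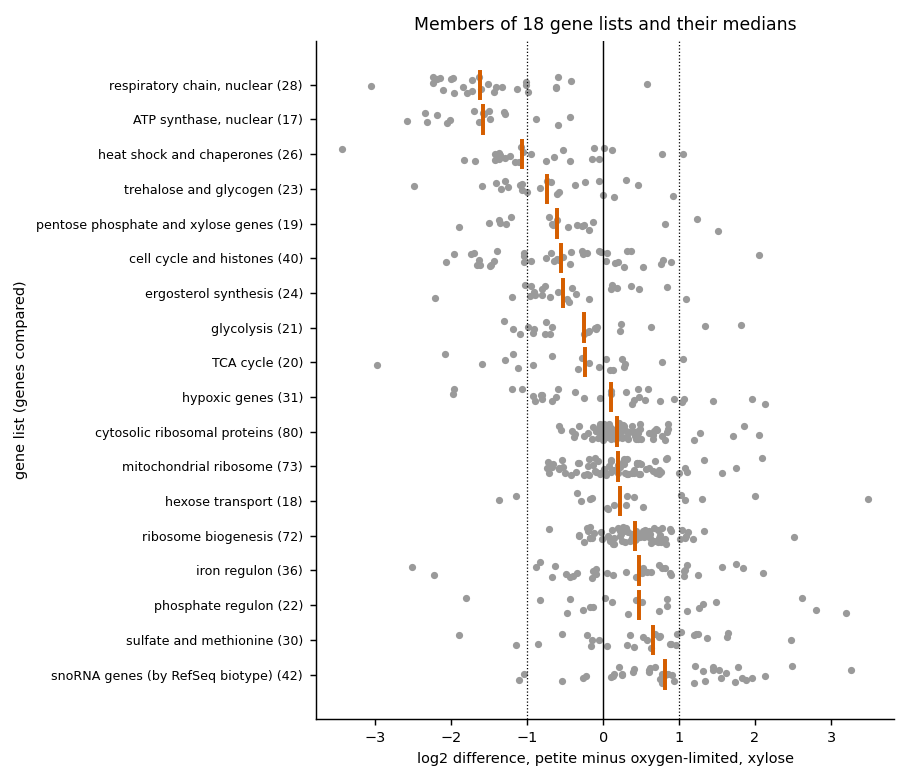
Log2 difference, petite minus oxygen-limited on xylose, of every compared member (grey points) of 18 gene lists, with list medians as orange bars, a solid line at 0 and dotted lines at 2-fold. Respiratory chain and ATP synthase genes have the lowest medians shown, -1.63 and -1.58, and small nucleolar RNA genes the highest, 0.81.

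Lists tied to growth had medians of either sign. Ribosome biogenesis genes had a median of 0.42, with 8 of 72 at least 2-fold higher and 0 lower. RLP7 (545 against 95.8), NOP12 (155 against the floor) and IMP4 (207 against 91.1) were the examples furthest from 0. Cytosolic ribosomal protein genes had a median of 0.18 and 5 of 80 at least 2-fold higher, close to the 6.95% of all genes. Purine and pyrimidine synthesis had 8 of 29 at least 2-fold higher and 0 lower, among them IMD4 (674 against 221) and the high-numbered URA2 (2155 against 705). Cell cycle and histone genes lay on the other side, with a median of -0.56 and 14 of 40 at least 2-fold lower, beside 6.13% of all genes. The histone gene HTB2 read 116 against 488, the G1 cyclin gene CLN1 96.8 against 378 and the daughter-cell separation gene DSE2 481 against 1611. RFA1, a single-strand DNA binding gene read by a high-numbered probe set, was the member at least 2-fold higher.

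In each of 3 nutrient regulons a minority of genes was at least 2-fold higher in petite cells on xylose, beside 6.95% of all genes. In the phosphate regulon these were 7 of 22. PHO84 and SPL2, which the Pho4 factor is known to induce, read 2983 against 324 and 511 against 73.6, and PHO89 read 1036 against 169. The acid phosphatase gene PHO3 differed by -1.81. As a list these genes turned on glucose, where the median was -0.60 against 0.47 on xylose. There 2 of 23 were at least 2-fold higher and 5 lower, beside 7.33% and 3.75% of all genes. The iron and the sulfate and methionine lists had glucose medians of 0.60 and 0.225. In the iron regulon 9 of 36 were at least 2-fold higher, including the siderophore genes ARN2 (586 against 136) and FIT3 (4730 against 1318) and the ferroxidase gene FET3 (362 against 152). FRE7 and CTR1, which serve copper uptake, were at least 2-fold lower. In sulfate and methionine metabolism 8 of 30 were higher, among them CYS4 (785 against 141), CYS3 (544 against 174) and MET14, the last 2 high-numbered. MET8 (102 against 380) and MET28 (95.9 against 212) were at least 2-fold lower. Amino acid synthesis genes had 9 of 63 at least 2-fold higher around a median of 0.06. The furthest up were LYS9 and LYS1 (1858 against 340) of lysine synthesis, the asparagine synthetase gene ASN2 (475 against 146) and LYS20 (4657 against 1471), again of lysine synthesis. HIS4, ARG1 and HIS2 were at least 2-fold lower. Thiamine genes had a median of -0.49, with 9 of 12 below 0 and 1 past 2-fold on either side.

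Mating genes bear on the MATalpha label. MF(ALPHA)1 read 2393 to 3947 on the other 5 arrays and 259 on petite xylose. The second alpha-factor gene MF(ALPHA)2 read 144 in petite and 142 in oxygen-limited cells on xylose, against 1408 and 1472 on glucose, so it did not share the petite difference. The alpha-cell receptor gene STE3 read 740 against 1452. SAG1, another gene known for alpha cells, went the other way at 694 against 286, and is high-numbered. Of the genes known for a cells, AGA2, BAR1 and STE2 read 102 or less on the xylose pair and ASG7 was at the floor. STE6 read 132 and 220, MFA2 155 and 244 and MFA1 766 and 653, and what these probe sets read in a MATalpha strain was not tested. The strain marker URA3 read 944 against 1451, and LEU2 1940 against 2375 by its brightest probe set but 0.68 higher in petite cells as the mean of 3 probe sets.

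**Figure D4:**
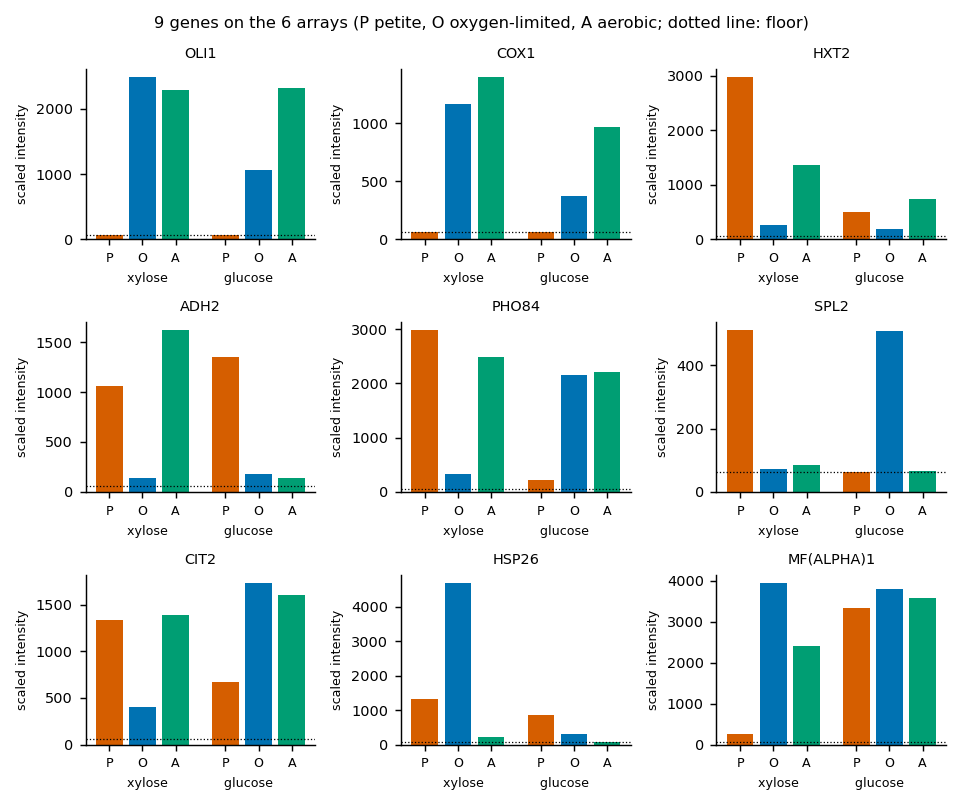
Scaled intensity (linear axis from 0) of 9 genes on the 6 arrays, with petite (P), oxygen-limited (O) and aerobic (A) cells on xylose at left and glucose at right, and the floor of 61.7 as a dotted line. OLI1 and COX1 lie at the floor on both petite arrays, ADH2 is low on both oxygen-limited arrays, and PHO84, SPL2, CIT2 and HSP26 order petite and oxygen-limited cells in opposite ways on the 2 sugars.

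The glucose arrays also set petite against oxygen-limited cells and share no array with the xylose pair. The contrast is not the same, because the move from glucose to xylose medium applies to the petite xylose sample only. Over 5182 genes compared on both sugars the differences correlated with Pearson's r of 0.551 and Spearman's rho of 0.567. Genes are not independent replicates, and pairs of the same kind share probes and culture conditions, so this describes the arrays. Of 363 genes at least 2-fold higher in petite cells on xylose, 141 were so on glucose too, which is 38.8% of the xylose and 36.5% of the 386 glucose genes. Of 317 genes at least 2-fold lower on xylose, 55 were so on glucose, 17.4% of the xylose and 28.4% of the 194 glucose genes. Past 2-fold in opposite directions were 5 and 6 genes. High-numbered genes, shifted toward the petite side on both sugars (medians of 0.18 and 0.59), were not set apart in these values.

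**Figure D5:**
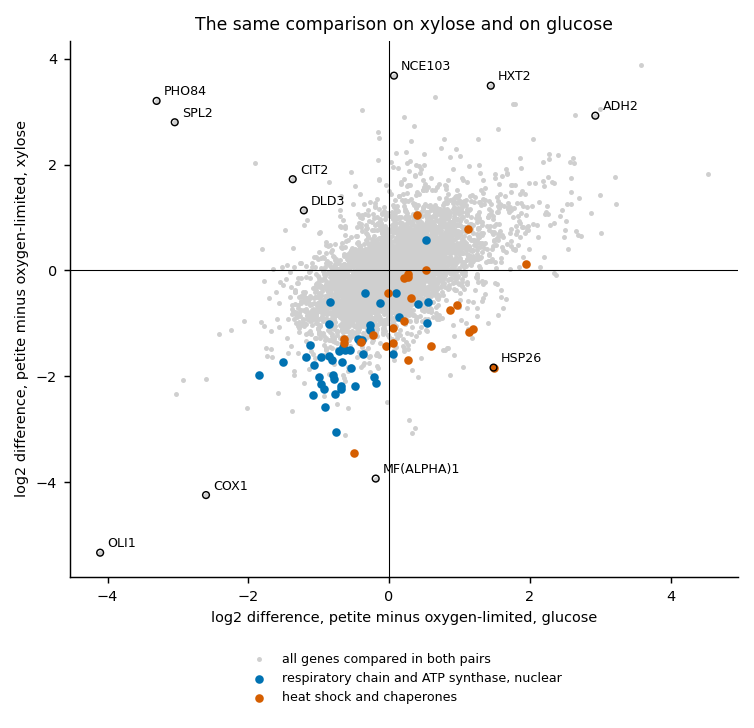
Log2 difference, petite minus oxygen-limited, on xylose (vertical) against glucose (horizontal) for 5182 genes (grey), with nuclear respiratory chain and ATP synthase genes in blue, heat shock genes in orange and 11 named genes circled. OLI1 lies at the lower left at -5.33 and -4.11, both bounds, and PHO84 at the upper left at 3.20 and -3.30.

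A test was possible only for the average of both sugars, by a linear model of background and sugar over all 6 arrays in limma, which takes the effect of sugar as equal in all backgrounds and leaves 2 residual degrees of freedom. Of 5462 genes, 5 (0.0915%) passed at an adjusted p under 0.05 as higher in petite cells and 1 (0.0183%) as lower. At an unadjusted p under 0.05 the counts were 773 (14.2%) and 723 (13.2%). The 1 gene that fell was OLI1, by 4.72 log2 units (SE 0.35, limma adjusted p = 0.0372), lower in both pairs, with the petite values at the floor. COX1, with a mean difference of -3.42 and SE 0.40, had a limma adjusted p = 0.0556.

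The genes that rose were mostly of little known role. YER138W-A read 1046 and 952 on the petite and 71.2 and 79.9 on the oxygen-limited arrays (xylose, then glucose), a mean difference of 3.73 with SE 0.18 and limma adjusted p = 0.0181. Its aerobic values were 924 and 950, so the oxygen-limited arrays stood apart from the other 4. The same order held for YIL060W, which is read like YER138W-A by a probe set marked as matching a family of sequences, at 1648 and 1502 against 215 and 241, with 1716 and 1402 in aerobic cells (limma adjusted p = 0.0372). Averaged over its 4 probe sets the xylose difference of YIL060W was 1.85. CPP3 read 2215 and 858 on the petite arrays, 268 and 108 on the oxygen-limited and 345 and 141 on the aerobic arrays (limma adjusted p = 0.0193), so there the petite arrays stood apart. YJL213W, which is high-numbered, and NFT1, a transporter gene of the ABC family, also rose, with a limma adjusted p of 0.0372 and 0.0460. Over its 6 probe sets NFT1 had a mean xylose difference of 0.71.

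No nuclear gene of oxidative phosphorylation passed this test, with CYC7 at the smallest adjusted p = 0.0556 in limma. At an unadjusted p under 0.05, 34 of the 45 nuclear genes were lower in petite cells and 1 was higher, beside the 13.2% and 14.2% of all genes. Of the 45, 38 were below 0 on both sugars, and the share of all genes below 0 on both was not counted.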

How the data were processed

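RNA of 6 cultures was read on 6 Affymetrix yeast arrays. The deposited values are linear intensities per probe set; how the authors summarised and scaled them is stated neither in the labels nor in the table. Of 9335 probe sets, 9274 were yeast ones with a value, 60 were controls and 1 had none. Symbols from the platform annotation gave 1 gene for 6504 of them, several for 328 and none for 2442.

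Arrays were scaled to 1 median, values under the 25th percentile (61.7) were raised to it, and log2 was taken. The brightest probe set by mean stood for its gene. The xylose difference has no replicate and no test. The average over both sugars was tested with limma 3.58.1 in R 4.3.3 (background plus sugar, all 6 arrays, Benjamini-Hochberg), on genes above the floor on at least 1 array. The limma step was also run on simulated arrays with independent noise of equal size for all genes and no effect of sugar. That run does not show how well the model holds for these unlike cultures.

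Named genes were the 15 highest and 15 lowest with a standard name that were bright and at least 2-fold apart under median scaling, quantile normalization and trend removal, the members furthest from 0 of each list and those past 2-fold against it, a fixed set of metabolic and marker genes, and the genes that passed in limma. Beside the largest, further members of a list were chosen after their values were seen, as was the small nucleolar RNA list. Members and lists were chosen with earlier results of these data known. Alternatives were the deposited scale, quantile normalization, a floor at the 10th or at the 40th percentile, probe set means, a 3-fold threshold, removal of a running median along probe set numbers (window 201) or of the high-numbered probe sets, and, in limma, a variance trend, 4 arrays and no filter. Each culture gave 1 array, so the spread behind any p-value is that between unlike cultures, and precision is limited by there being 6 arrays.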

Additional observations from a re-analysis of the deposited data

Results flagged for a closer look

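The difference between petite and oxygen-limited cells was past 2-fold on both sugars, with opposite signs, for 5 of the named genes. With 1 array per condition the difference between the sugars was not tested.

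PHO84, the phosphate transporter gene, differed by 3.20 log2 units on xylose and by -3.30 on glucose. The low arrays were oxygen-limited xylose (324) and petite glucose (219), and the other 4 arrays read 2162 to 2983. SPL2, a regulator of phosphate uptake, differed by 2.80 on xylose and by -3.05 on glucose, the last being a bound. It was high on petite xylose (511) and oxygen-limited glucose (509) and 84.5 or lower on the other 4 arrays.

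The retrograde reporter genes CIT2 and DLD3 were also turned. CIT2 differed by 1.72 on xylose and -1.37 on glucose, and DLD3 by 1.13, a bound, and -1.21. The heat shock gene HSP26 went the other way, with -1.83 on xylose and 1.48 on glucose, and read 1320 and 4706 in petite and oxygen-limited xylose cells and 851 and 304 on glucose.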

How the results depend on the processing

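The counts of genes at least 2-fold apart on xylose stayed within 1.5 times their value under every alternative except a 3-fold threshold, which left 101 higher and 85 lower. The list medians named for respiration, ATP synthase, heat shock, trehalose and glycogen, and ribosome biogenesis kept their sign under all 7 alternatives, with ranges of -1.78 to -1.61, -1.75 to -1.58, -1.14 to -1.01, -0.90 to -0.74 and 0.36 to 0.47. Of 43 list medians, 3 changed sign after quantile normalization, 1 on the deposited scale and 1 without high-numbered probe sets. The list of hypoxic genes turned in the first and the last of these. The limma counts depended on the setting. Higher and lower calls were 5 and 3 on the deposited scale, 5 and 1 after quantile normalization, 187 and 92 with the floor at the 10th percentile, 2 and 0 at the 40th, 2 and 0 over probe set means, 3 and 1 with the trend removed, 4 and 1 without high-numbered probe sets, and 80 and 40 with a variance trend in limma. With only the 4 petite and oxygen-limited arrays they were 0 and 0 (596 and 564 at an unadjusted p under 0.05 in limma), and without a filter 0 and 0 (749 and 764). OLI1 was thus not called at the higher floor, over probe set means, with 4 arrays or without a filter. The cause was not tested. Floors set the size of bounds, such as DLD3 at 0.30 and HXT1 at 1.16 with the 40th percentile. One culture per condition, unknown summarisation and a petite sample with another culture history and an unstated final density limit every value.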

Other observations

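Small nucleolar RNA genes, which guide the modification and cutting of ribosomal RNA, were gathered by their RefSeq biotype after values had been seen. Of 42 compared, 17 were at least 2-fold higher in petite than in oxygen-limited cells on xylose and 2 lower, beside 6.95% and 6.13% of all genes, with a median of 0.81. SNR4 read 2647 against 275 and SNR70 2073 against 720, while SNR58 read 84.3 against 174. On glucose the median was 0.24, with 7 higher and 1 lower. These RNAs carry no long poly(A) tail in mature form, and the labels mention an oligo(dT) primer, so the values cover only what that primer copied.

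Mitochondrial ribosome genes, encoded in the nucleus, had 7 of 73 (9.59%) at least 2-fold higher on xylose, near the 6.95% of all genes, 0 lower and a median of 0.19. MRP7 read 410 against 96.2 and MRPS18 364 against 108. Genes of fatty acid oxidation and the peroxisome had 4 of 27 at least 2-fold higher and 0 lower, CTA1 being the furthest at 970 against 147.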
